A study of Mus musculus with 16 samples.

Results

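The 3 genes described here, Rag1, Rag2 and Dntt, encode the lymphoid recombination enzymes. They were found by matching the Ensembl identifiers of the deposited counts to their symbols, which gave 3 genes of the 54113 identifiers that all 16 libraries list. All 3 passed the filter on low counts in both sets of libraries. The study measured RNA from sorted double-positive (DP) thymocytes of mice, the stage that carries CD4 and CD8 together. The labels give young WT (3 libraries), old WT (4) and young METTL3 KO (3), and a second set, with no age, of WT (3) and METTL3 KO (3). METTL3 is the catalytic subunit of the enzyme that writes N6-methyladenosine on RNA. The labels state neither ages in numbers, the Cre or promoter behind the knockout, sex, litter nor whether libraries came from separate animals, so the p-values measure the spread between these libraries, which may be technical.

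RAG1 and RAG2 form the recombinase that cuts DNA at the signals flanking V, D and J segments: RAG1 holds the catalytic site and RAG2 is its cofactor. Classical end-joining proteins then seal the breaks, and the DNTT protein (terminal deoxynucleotidyl transferase, TdT) adds untemplated nucleotides at the joins. In DP thymocytes the recombinase rearranges the T cell receptor alpha locus, and signalling through a selected receptor turns the Rag genes off.

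Rag1 (ENSMUSG00000061311) lies on the minus strand at chr2:101638282-101649501 in mm10 (GENCODE vM21), has 2 exons and a transcript of 6608 bases, of which 3120 are coding and all lie in 1 exon. Rag2 (ENSMUSG00000032864) faces it on the plus strand at chr2:101624718-101632529, and the ends of the genes are 5752 bases apart. Its longest transcript has 3 exons and 3424 bases, with the 1581 coding bases again in 1 exon. Dntt (ENSMUSG00000025014) lies elsewhere, at chr19:41029275-41059525 on the plus strand, and its longest transcript has 12 exons and 2130 bases, of which 1590 are coding.

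The promoters are shown because Rag1 and Rag2 are neighbours and fell together in 1 comparison below, while each starts from its own promoter. They are the 250 bases before the RefSeq start of each gene (GRCm38.p6), written 5′ to 3′ on the gene's strand: chr2:101649533-101649782 (minus) for Rag1, chr2:101624462-101624711 (plus) for Rag2 and chr19:41029025-41029274 (plus) for Dntt. Capitals mark CANNTG, the E-box read by E proteins, and TGTGGT, a core read by RUNX factors, on either strand.
Rag1: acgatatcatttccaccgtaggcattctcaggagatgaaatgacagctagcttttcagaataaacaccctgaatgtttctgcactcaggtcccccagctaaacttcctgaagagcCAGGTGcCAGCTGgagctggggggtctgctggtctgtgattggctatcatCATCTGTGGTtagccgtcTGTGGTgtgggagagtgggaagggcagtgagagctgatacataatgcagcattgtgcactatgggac
Rag2: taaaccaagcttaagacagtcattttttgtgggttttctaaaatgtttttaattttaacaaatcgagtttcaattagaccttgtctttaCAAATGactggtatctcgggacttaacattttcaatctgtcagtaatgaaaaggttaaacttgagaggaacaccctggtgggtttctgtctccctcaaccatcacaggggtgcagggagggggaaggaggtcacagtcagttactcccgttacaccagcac
Dntt: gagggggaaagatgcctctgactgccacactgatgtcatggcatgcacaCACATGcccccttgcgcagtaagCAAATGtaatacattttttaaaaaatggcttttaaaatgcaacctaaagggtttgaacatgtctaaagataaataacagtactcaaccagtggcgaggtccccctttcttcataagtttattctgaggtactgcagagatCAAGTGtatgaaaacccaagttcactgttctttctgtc
Rag1 held 3 matches to CANNTG and 2 to TGTGGT, and the third E-box overlaps the first RUNX core. Rag2 held 1 match to CANNTG and Dntt 3, and neither held the RUNX core. The Ikaros core GGGAA matched 1 time in each promoter, and the NF-Y box CCAAT 1 time in that of Rag1. Of 32851 mouse promoters of this length, 66.2% held an E-box, 14.1% a RUNX core, 56.2% an Ikaros core and 33.9% an NF-Y box. At least 2 RUNX cores were found in 1.27%. These are matches of letters only, since binding was not measured.

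Libraries with an age held 9781368 to 10307780 gene counts, those of WT without an age 15927134 to 16167074, and those of KO without an age 10575795 to 13740694. The sets also differed in the share of entries not aligned, 0.577% to 0.826% against 50.5% to 52.2%, and were scaled separately, so levels are set side by side only within a set. Within the set without an age, entries outside genes made up 7.23% to 7.60% in WT and 11.9% to 15.0% in KO. Mettl3 itself gave 59.5 to 66.0 CPM (reads of a gene scaled to library size, with TMM factors) in young WT and 62.1 to 64.5 in young METTL3 KO. Without an age it gave 54.5, 47.2 and 45.1 in WT and 32.5, 38.6 and 27.0 in KO, a log2 difference of -0.58 (adjusted p = 0.0189, edgeR). The labels do not say which exons were removed, so gene counts check the knockout only in part. The young libraries labelled METTL3 KO did not go below young WT for Mettl3, and any direction drawn from them rests on the label. All 12 DP markers had counts in all 16 libraries. So did all 13 mature single-positive markers, so the presence of counts does not check the DP label. Old WT replicate 3 stood apart in markers of other cells: the summed level of 9 dendritic-cell markers was 313.5 CPM there and 21.2 to 46.2 CPM in the other old libraries, and that of 13 B-cell markers 2057 CPM against 498.6 to 974.5 CPM.

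Rag1 was among the most abundant RNAs of WT cells. Its mean level was 6008 ± 891 CPM (SD, n = 3) in young WT, which placed it 2 in the order of 14228 genes, and 5852 ± 738 CPM (SD, n = 3) in WT without an age, also rank 2, of 16432. Dntt came to 2150 ± 88.5 CPM (SD, n = 3) in young WT and 2032 ± 39.6 CPM (SD, n = 3) in WT without an age, ranks 12 and 16. Rag2 was much lower, at 247.7 ± 23.5 CPM (SD, n = 3) and 217.1 ± 56.6 CPM (SD, n = 3).

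Longer transcripts collect more reads, so levels of different genes were also set per kilobase (kb) of exon. On that scale Rag1 and Dntt lay close together in WT: 909 ± 135 and 938 ± 38.6 CPM per kb (SD, n = 3) in young WT, and 886 ± 112 and 886 ± 17.3 CPM per kb (SD, n = 3) in WT without an age. Rag1 was above Dntt in 1 of 3 young WT libraries and in 2 of 3 WT libraries without an age, so their order did not hold between libraries. Rag2 came to 72.3 ± 6.85 CPM per kb (SD, n = 3) in young WT, and Dntt was above it in every library of all 5 groups. The mean ratio of Rag1 to Rag2 per kb was 12.6 ± 1.19 (SD, n = 3) in young WT. In KO without an age Rag1 was above Dntt in 0 of 3 libraries, at 163 ± 18.4 against 553 ± 162 CPM per kb (SD, n = 3). It was also above Dntt in 0 of 3 libraries of young METTL3 KO, and in 2 of 4 of old WT. The mean ratio of Rag1 to Dntt per kb was 0.972 ± 0.166 in young WT and 0.879 ± 0.061 in young METTL3 KO (SD, n = 3). Without an age this ratio was 0.999 ± 0.122 in WT and 0.317 ± 0.117 in KO (SD, n = 3).

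Between young and old WT, none of the 3 genes passed the test, and the old libraries were uneven in Rag1. Rag1, the catalytic subunit, gave 7036, 5462 and 5526 CPM in young WT and 3482, 6395, 3728 and 6590 CPM in old WT. Replicates 1 and 3 of old WT lay below every young library, and replicates 2 and 4 lay within the young range. The log2 difference was -0.25 ± 0.21 (SE), with a 95% interval of -0.71 to 0.21 (adjusted p = 0.663, edgeR's quasi-likelihood test). Of 14228 genes tested in this comparison, 36 were called, or 0.253%, and 0 of the 3 genes were among them. Without old WT replicate 1 the value was -0.11, without replicate 3 it was -0.13, and without young WT replicate 1 it was -0.12.

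Rag2, the cofactor, did not share the low level of old WT replicate 3. It gave 267.5, 221.8 and 253.9 CPM in young WT and 201.9, 274.8, 290.7 and 323.7 CPM in old WT. Only old WT replicate 1 was below the young range, and replicates 2, 3 and 4 were above it. The log2 difference was 0.14 ± 0.14 (SE), interval -0.15 to 0.43 (adjusted p = 0.704, edgeR).

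Dntt, which encodes TdT, varied least. It gave 2101, 2096 and 2252 CPM in young WT and 2088, 2039, 1752 and 1855 CPM in old WT. All 4 old libraries were below all 3 young ones, the nearest by a few CPM, and the share of all genes that did so is not given here. The log2 difference was -0.15 ± 0.09 (SE), interval -0.35 to 0.05 (adjusted p = 0.524, edgeR). Old WT replicate 3, which had the highest sums of B-cell and dendritic-cell markers, was the lowest. Replicate 4, the next lowest in Dntt, had the lowest of these sums among the old libraries, at 498.6 and 21.2 CPM. The part of other cells in these values was not tested. In bulk RNA, fewer cells that express a gene and less RNA per cell cannot be told apart.

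In young METTL3 KO all 3 genes stayed close to young WT. Rag1 gave 5935, 5911 and 5353 CPM, which overlapped the young WT libraries, and its log2 difference was -0.07 ± 0.23 (SE), interval -0.57 to 0.43. Rag2 gave 240.7, 262.3 and 265.8 CPM, within the young WT range, with a difference of 0.05 ± 0.14 (SE), interval -0.26 to 0.36. Dntt gave 2213, 2291 and 2289 CPM, 2 of them above the highest young WT library, with a difference of 0.07 ± 0.10 (SE), interval -0.14 to 0.29. Each adjusted p was 1 (edgeR). In this comparison 0 of 14228 genes, 0%, were called by edgeR, 88 had an unadjusted p under 0.05, and DESeq2 and limma-voom also called 0. The sign of the Rag1 difference turned to 0.06 without young WT replicate 1, and that of Rag2 to -0.02 without young WT replicate 2. This comparison and that of age share the young WT libraries and 1 fit, so the spread of old WT enters the errors above. With only the 2 groups fitted, the SE was 0.09 for Rag1, 0.07 for Rag2 and 0.05 for Dntt. In that fit 521 of 13780 genes had an unadjusted p under 0.05 (edgeR), and 0 were called.

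**Figure D1:**
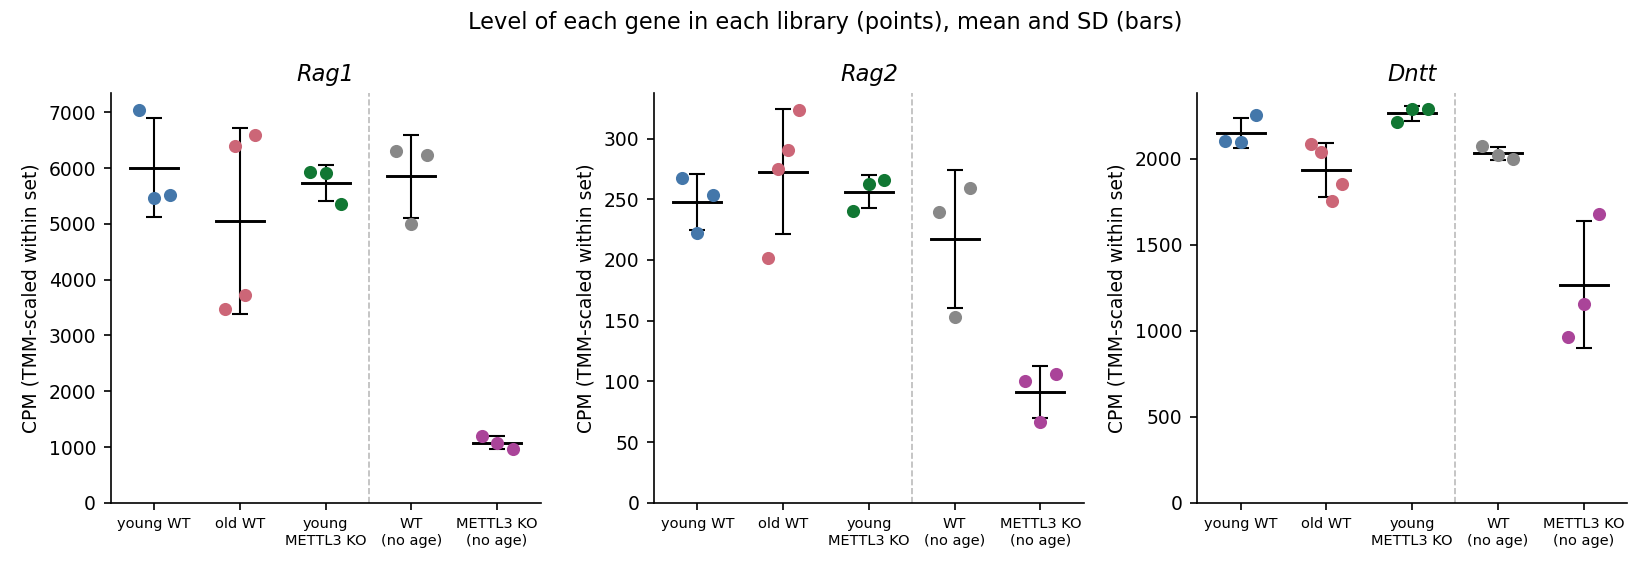
TMM-scaled CPM (y axis, from 0) of Rag1, Rag2 and Dntt in each library (points) of the 5 groups (x axis), with the group mean (line) and SD (bar). The dashed line parts the sets, which were scaled separately. Old WT holds 2 libraries at 3482 and 3728 CPM and 2 at 6395 and 6590 CPM of Rag1, and the 3 KO libraries without an age lie below their WT for each gene.

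In METTL3 KO without an age all 3 genes fell, Rag1 the furthest. Rag1 gave 6312, 5000 and 6243 CPM in WT and 1201, 1071 and 958.7 CPM in KO. The highest KO library was well below the lowest WT library, and the KO mean was 1077 ± 121 CPM (SD, n = 3), which moved Rag1 from rank 2 to rank 64 by CPM. The log2 difference was -2.44 ± 0.19 (SE), interval -2.85 to -2.03, a 5.43-fold lower level (adjusted p = 4.11e-05, edgeR).

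Calls were common in this comparison: 8864 of 16432 genes, 53.9%, passed the test, 29.9% higher and 24% lower, so a call in itself was common here. The share of all genes whose WT and KO libraries did not overlap is not given here. A lack of overlap is therefore only a description of each gene. Of 10205 genes of at least 5 CPM, 69 fell further than Rag1 in log2 terms, 801 further than Rag2 and 2726 further than Dntt. In CPM, Rag1 lost 4775, the most of any gene, and among the 20 most abundant genes of WT none fell further. Of these 20 genes 16 were below 0 and 4 above, 11 were called lower, Rag1 and Dntt among them, and 4 higher. As examples, Ddx5, an RNA helicase, fell by -1.06 (adjusted p = 0.00204, edgeR), Satb1, a chromatin organiser of thymocytes, differed by -0.40 (adjusted p = 0.102), Lck, a kinase of the T cell receptor, rose by 0.75 (adjusted p = 0.00746), and mt-Co1, a mitochondrial gene, rose by 1.61 (adjusted p = 0.000972). These 4 were chosen after their values were seen.

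Rag2 gave 239.7, 152.7 and 258.9 CPM in WT and 100.4, 66.8 and 106.0 CPM in KO. The groups did not overlap, and replicate 2 was the lowest in both. The log2 difference was -1.25 ± 0.23 (SE), interval -1.75 to -0.75, a 2.38-fold lower level (adjusted p = 0.00103, edgeR).

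Dntt fell least and least evenly. It gave 2076, 2019 and 2000 CPM in WT and 965.4, 1157 and 1681 CPM in KO, so that the KO libraries spread far more (CV 29.2%) than those of WT (CV 1.95%). The log2 difference was -0.68 ± 0.20 (SE), interval -1.13 to -0.23, a 1.60-fold lower level (adjusted p = 0.0149, edgeR). The call was lost without KO replicate 1 (-0.55, adjusted p = 0.0561). It was also lost with sex, read from the counts, as a covariate (-0.27). All 3 WT libraries and KO replicate 3 read as male and the other 2 KO libraries as female. The KO value of that fit therefore rests on KO replicate 3 alone.

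**Figure D2:**
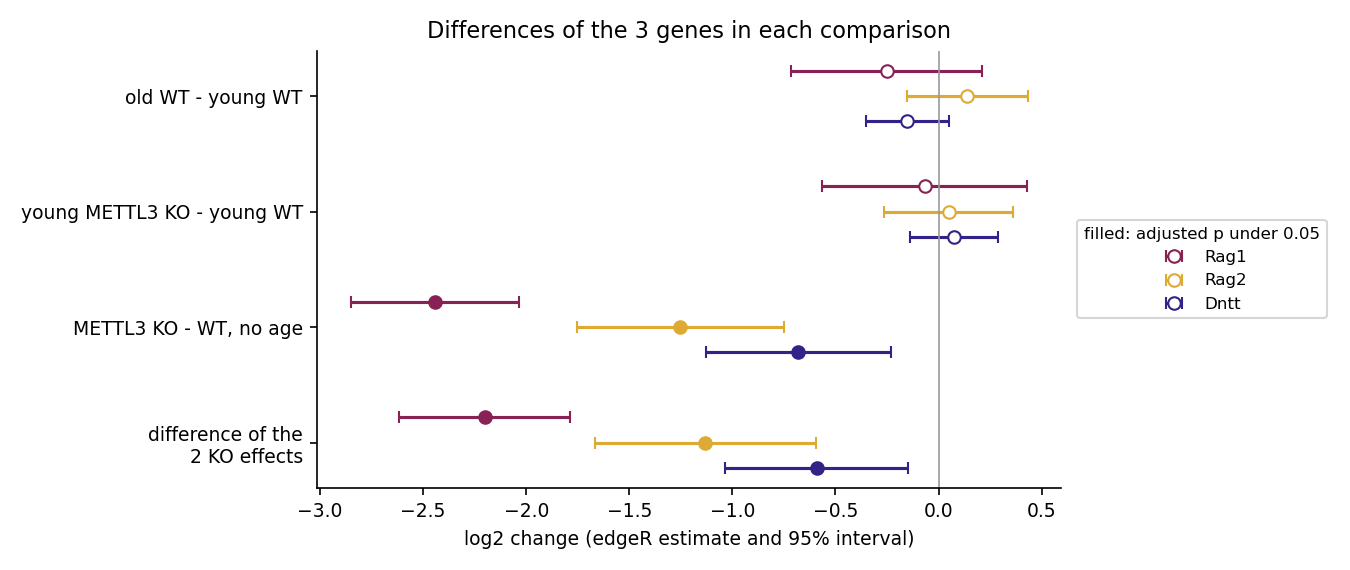
Log2 change (x axis) of each gene in the 3 comparisons and in the difference between the KO effects of the sets (y axis), with edgeR's 95% interval. Filled points had an adjusted p under 0.05: all intervals of the age and young KO comparisons cross 0, and those without an age lie below it, from -2.44 for Rag1 to -0.68 for Dntt.

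The KO differences of the sets were themselves compared over 12 libraries. The difference without an age was lower than that in young mice by -2.20 ± 0.19 (SE) for Rag1 (adjusted p = 8.69e-06, edgeR interaction), by -1.13 ± 0.25 for Rag2 (adjusted p = 0.00303) and by -0.59 ± 0.21 for Dntt (adjusted p = 0.0376). Of 16557 genes, 17.7% were called lower in this test. For Dntt the value was -0.62 without WT replicate 1 (adjusted p = 0.0552, edgeR) and without WT replicate 2 (0.0513), -0.63 with the replicate block (0.068) and -0.47 with sex as a covariate (0.0859), which ended the call, and it was -1.02 without KO replicate 3 of the set without an age.

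Ratios of counts within a library do not depend on scaling. The count of Rag1 over that of Rag2 was 24.2 ± 2.30 (SD, n = 3) in young WT, 18.4 ± 4.47 (SD, n = 4) in old WT and 22.4 ± 2.26 (SD, n = 3) in young KO. Without an age it was 26.3, 32.8 and 24.1 in WT and 11.96, 16.04 and 9.05 in KO, so every KO library was below every WT library. Rag1 over Dntt also did not overlap, at 3.04, 2.48 and 3.12 in WT and 1.24, 0.926 and 0.570 in KO. Rag2 over Dntt overlapped, with means of 0.107 in WT and 0.0749 in KO. In exact two-sided permutation tests over libraries, both Rag1 ratios gave p = 0.1, the smallest that 3 against 3 allow, and an adjusted p of 0.343 over the 9 ratio tests. In old against young WT the exact permutation p of Rag1 over Rag2 was 0.114, where the smallest possible is 0.0571.

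The fall in KO without an age moved with transcript length over all genes. Among genes of at least 5 CPM, the median log2 change went from 0.34 for transcripts of up to 1000 bases to -0.82 for those over 8000 bases, and Rag1 has a long transcript. Rag1 was at -2.44 where 1235 genes within 1.2-fold of its length had a median of -0.62, and 7 fell further. Rag2 was at -1.25 where 2565 genes of like length had a median of -0.20, and 171 fell further. Dntt was at -0.68 where 1603 genes had a median of 0.03, and 224 fell further. With an offset for length in each library, added after the data were seen, the differences were -1.81 for Rag1 (adjusted p = 1.95e-05, edgeR), -1.05 for Rag2 (0.00139) and -0.72 for Dntt (0.00447). That offset changed the split of all calls to 5635 higher and 2840 lower, from 4919 and 3945, and moved the median of all genes from 0.08 to 0.23. Scaling to the 12 DP markers, also added later, gave -2.26, -1.10 and -0.56, each called, with 5388 genes higher and 2728 lower and a median of 0.23.

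**Figure D3:**
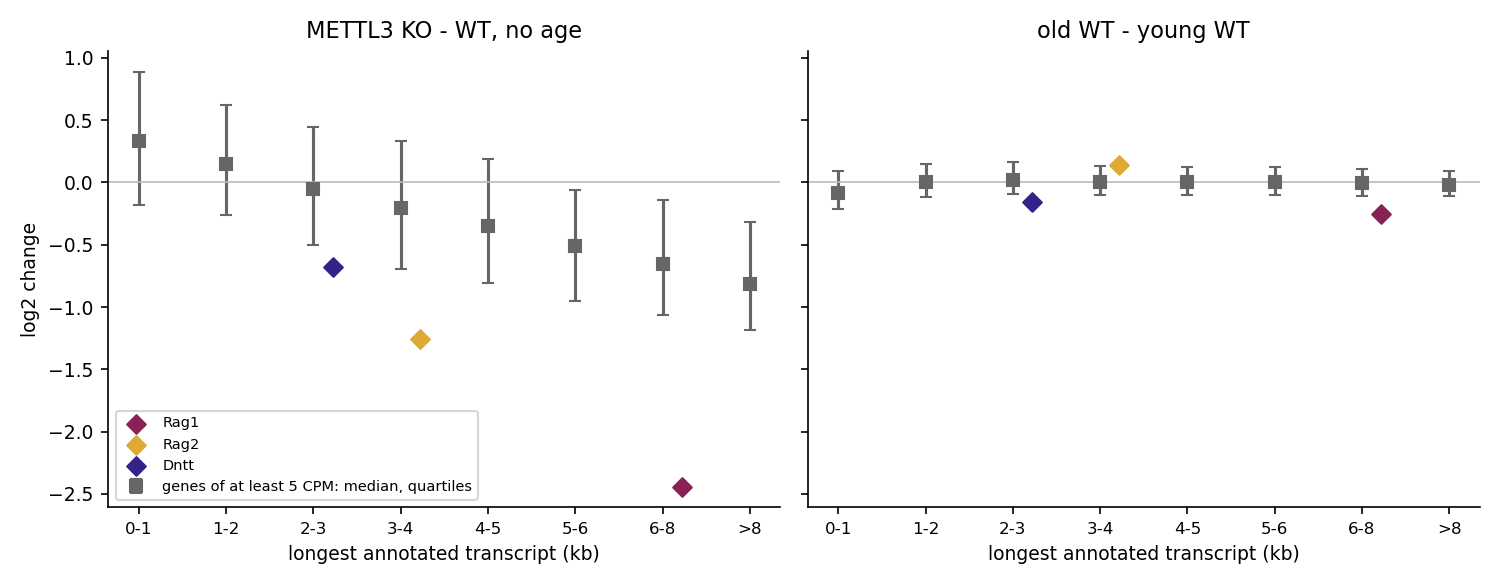
Log2 change (y axis) against the length of the longest annotated transcript (x axis, kb) without an age (left) and for age (right). Squares and bars are the median and quartiles of genes of at least 5 CPM, and diamonds are the 3 genes: without an age the medians go from 0.34 to -0.82 and all 3 genes lie below their own bin's lower quartile.

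Transcript length was also set against the 3 genes between the libraries with an age. An index was formed after the data were seen, as the median log2 deviation of genes over 5 kb minus that of genes under 1.5 kb. It was -0.25 and -0.12 in old WT replicates 1 and 3, where Rag1 was low, and 0.20 and 0.29 in replicates 2 and 4. Over the 10 libraries with an age, Rag1 and the index had a Pearson r of 0.772 (permutation p = 0.0117, adjusted 0.0704 over 6 relations) and a Spearman rho of 0.782 (permutation p = 0.0103, adjusted 0.0620). Without the 2 libraries farthest in the index, r was 0.854. For Rag2 r was 0.684 (permutation, adjusted p = 0.0866; rho 0.503, adjusted 0.306), and 0.414 without the 2 farthest. For Dntt r was -0.284 (permutation, adjusted p = 0.429; rho -0.164, adjusted 0.789), and 0.209 without the 2 farthest, so that its sign turned. None of these passed the adjustment. Over deviations from group means, given without a test, r with the index was 0.949 for Rag1, 0.689 for Rag2 and -0.217 for Dntt. The part of transcript length in the Rag1 values was not tested.

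Rag1 and Rag2, though side by side, did not pass the correlation test across these 10 libraries: r was 0.435 and rho 0.455 (permutation, adjusted p = 0.312 and 0.306), and r was 0.583 without the 2 libraries farthest in Rag1. Rag1 and Dntt gave r = 0.289 and rho = 0.0182 (permutation, adjusted p = 0.429 and 0.974), which turned to -0.621 without old WT replicates 1 and 3, so it rests on those libraries. Rag2 and Dntt gave r = -0.472 and rho = -0.442 (permutation, adjusted p = 0.312 and 0.306), and -0.466 without the 2 farthest. Without an age WT and KO did not overlap in any of the 3 genes, so no pooled r is given, and deviations from the group means were used over those 6 libraries. They gave r = 0.518 and rho = 0.314 for Rag1 and Rag2 (exact permutation within groups, adjusted p = 0.667 and 0.611 over 3 relations). Rag1 and Dntt gave r = -0.620 and rho = -0.486 (exact permutation, adjusted p = 0.667 and 0.611), and Rag2 and Dntt r = 0.204 and rho = 0.314 (exact permutation, adjusted p = 0.778 and 0.611). Without the 2 libraries farthest in the first gene of each pair, r was 0.864, -0.411 and 0.476 in that order.

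**Figure D4:**
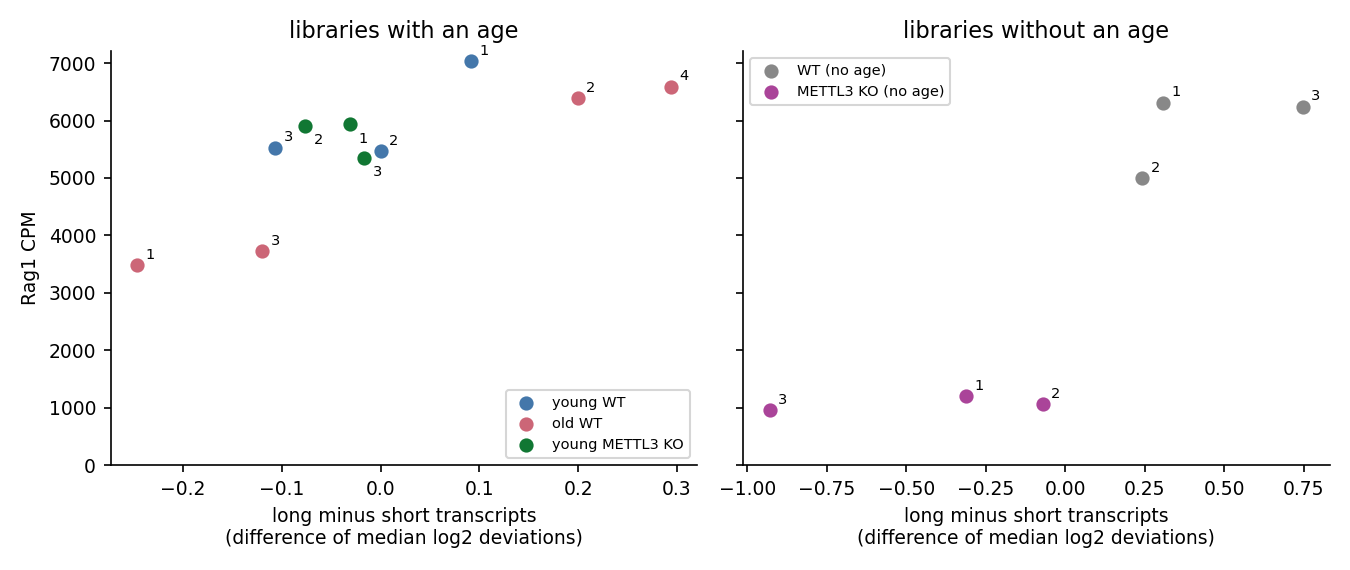
Rag1 CPM (y axis, from 0) against the long minus short index (x axis, log2 units) in the 10 libraries with an age (left) and the 6 without (right), numbered by replicate. Old WT replicates 1 and 3 are low in both measures, and without an age all KO libraries have an index below 0 and all WT libraries one above 0.

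The genes whose levels ran most like Rag1 over the 10 libraries with an age included Ube3c, Ankrd17, Ankhd1 and Smg1, with Pearson r from 0.978 to 0.991. Their transcripts are 5048 to 15557 bases long, and all 4 fell in KO without an age, by -0.83 for Ankhd1 to -1.61 for Smg1. Those most like Rag2 were Slc39a10, Stard5, Tmem229b, Zfp260 and Vps33a (r from 0.927 to 0.958), of which 4 fell without an age and Stard5 did not pass (0.46). Those most like Dntt were Pfdn4, Cops2, Ctu1, Fam92a and the pseudogene Cbx3-ps6 (r from 0.963 to 0.979), of which Cops2 (-0.66) and Ctu1 (-0.78) fell without an age, Pfdn4 (0.12) and Fam92a (-0.59) did not pass and Cbx3-ps6 was not tested. Without an age 24% of all genes were called lower. Among genes of at least 5 CPM it was 33.8% of those over 3000 to 4000 bases. It was 50.6% over 5000 to 6000 bases and 68.5% over 8000 bases, so a fall was common among long transcripts. These correlated genes are a description over shared libraries.

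The neighbours of the 3 genes were read next, as all protein-coding genes within 200 kb and any gene that overlaps one of them. Beside Rag1, Traf6, an adaptor of NF-kB signalling with a transcript of 6169 bases, fell by -1.45 without an age (adjusted p = 0.000127, edgeR). B230118H07Rik shares 80 bases of the first Rag1 exon on the same strand and 208 bases of the coding exon of Rag2 on the opposite strand, so reads there cannot be assigned with certainty. It rose by 0.74 in KO without an age (adjusted p = 0.00695), from 15.1 to 25.1 CPM. Near Dntt, Tm9sf3 (-1.22), Zfp518a (-1.38) and Ccnj (-0.74) fell, and Blnk, an adaptor of B-cell receptor signalling, rose by 2.60 from 1.14 to 6.98 CPM. Calls were common here, at 53.9% of all genes. The transcripts of Tm9sf3 and Zfp518a have 8096 and 6840 bases. Among genes of at least 5 CPM, 56.5% of those over 6000 to 8000 bases were called lower, and 68.5% of those over 8000 bases. Prr5l, Opalin and Tll2 had too few counts to be tested. None of the neighbours was called for age or in young KO.

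The other genes of the pathway were read from lists. Shares over all genes stand beside them, which include weakly expressed genes and all lengths. Without an age, among genes of at least 5 CPM, 12.5% of those up to 1000 bases were called lower. Over 8000 bases it was 68.5%, so the all-gene shares are a loose background for these lists. In age and in young KO, 0 members of any list were called. The machinery that opens, joins and senses the ends that RAG makes had 19 genes tested, and without an age 4 rose and 11 fell (median -0.49, against 0.08 for all genes, of which 29.9% rose and 24% fell). Lig4, which seals the ends with Xrcc4, fell by -1.63 (adjusted p = 0.000115, edgeR), Xrcc4 by -0.98, the break-sensing kinase Atm by -2.37 and its partner in break protection Rif1 by -1.53. Those that rose were Poll (1.89) and Polm (1.13), gap-filling polymerases related to TdT, and Nhej1 (0.92) and Paxx (0.83), which support the ligase. Also lower were Mre11a (-0.97), Rad50 (-0.64) and Nbn (-0.64) of the break-binding complex, Hmgb2 (-0.49), which bends DNA for RAG, Trp53bp1 (-0.44), Prkdc (-0.59) and the hairpin opener Dclre1c (-0.58). With the length offset Prkdc, Dclre1c and Trp53bp1 turned to 0.29, 0.07 and 0.36 and were not called.

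Of 17 genes for transcription factors known to act on the Rag or Dntt genes, with the Id inhibitors of E proteins, 8 fell and 0 rose without an age (median -0.41). The share called, 47.1%, was near the 53.9% of all genes, of which 24% fell. The E protein Tcf12 fell by -1.74 (adjusted p = 7.71e-05, edgeR), Ets1 by -1.34, Ikzf3 by -1.19, Ikzf1, which encodes Ikaros, by -1.17, Foxo1 by -0.85, Bcl11b by -0.78, Tcf7 by -0.64 and Runx1 by -0.60. In age the smallest p belonged to Gata3 (0.32, adjusted p = 0.27), Lef1 (0.22) and Bcl11b (0.22), none called.

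For turnover of RAG proteins and partners of TdT, 7 of 10 genes fell and 0 rose without an age (median -0.67), where 24% of all genes fell and 29.9% rose. Skp2 and Cks1b, parts of the ligase that marks RAG2 for destruction, fell by -1.42 and -0.51, the cyclin Ccna2 by -1.39, and Dcaf1 and Ddb1, of the ligase that RAG1 binds, by -0.97 and -0.42. Pcna and Dnttip2, which bind TdT, fell by -0.82 and -0.85. In age the values were -0.39 for Pcna, -0.20 for Dnttip2 and -0.19 for Ddb1, none called. Of 13 genes that T cell receptor signals raise, 2 rose and 6 fell without an age (median -0.46), a share called of 61.5% beside 53.9% of all genes. Nfkbid (1.05) and Bcl2 (0.64) were higher, and Ccr4 (-1.33), Tox (-1.18), Itm2a (-1.14), Cd69 (-0.73), Egr1 (-0.71) and Cd5 (-0.60) lower. In age all 13 were above 0 (median 0.54) and none was called, with Nfkbid at 0.69, Ccr4 at 0.54 and Cd5 at 0.29. The summed level of the list was 753.8 to 837.1 CPM in young WT and 823.1 to 1311 CPM in old WT, highest in replicate 3. The median of all genes in age was 0.006. Markers of other cells were also above 0 in age: 12 of 12 mature single-positive (median 0.84), 9 of 10 B-cell, 7 of 7 myeloid and 5 of 5 dendritic-cell markers, none called. The mature single-positive list shares Bcl2 and Ccr7 with the list of signal genes. Replicate 3 was the highest old library in the sum of each of these 4 lists. Its mature single-positive sum was 702.5 CPM, against 360.2 to 391.2 CPM in the other old libraries and 342.4 to 352.1 CPM in young WT. Its myeloid sum was 247 CPM, against 36.3 to 39.3 CPM in the other old libraries and 31.9 to 34.1 CPM in young WT. The part of other cells in the values of the signal genes was not tested.

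**Figure D5:**
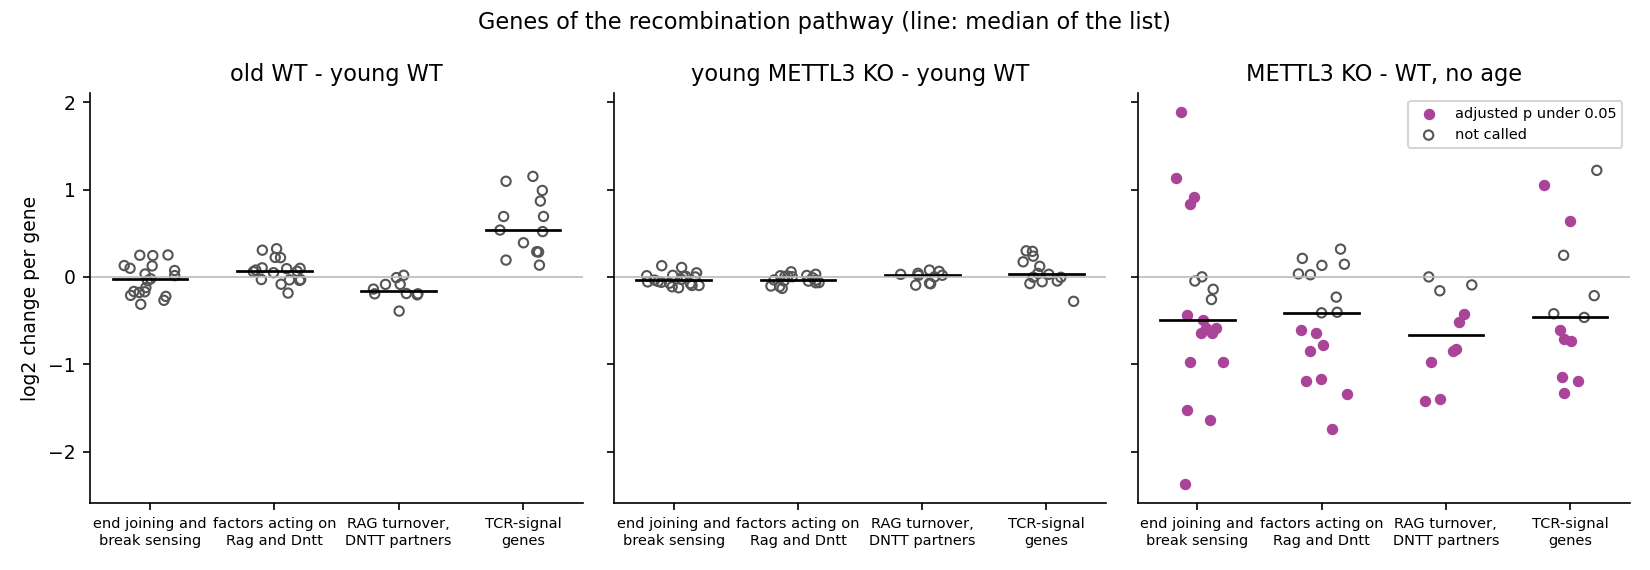
Log2 change (y axis) of each tested gene of 4 pathway lists (x axis) in the 3 comparisons, with the list median as a line. Filled points had an adjusted p under 0.05: they appear only in the right panel, where the medians lie between -0.41 and -0.67.

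Markers of other cells also moved without an age, where 29.9% of all genes rose and 24% fell. Of 11 B-cell markers tested, 9 rose and 0 fell (median 1.51), and the sum of the list went from 544.2 to 656.5 CPM in WT to 759.5 to 1202 CPM in KO. Of 7 dendritic-cell markers 6 rose, and of 9 myeloid markers 3 rose, with sums of 17.9 to 23.0 CPM against 39.0 to 91.3 CPM and of 17.6 to 26.7 CPM against 41.8 to 48.2 CPM. Of 12 DP markers 1 rose and 4 fell (median -0.22): Cd4 fell by -0.80 (adjusted p = 0.00269, edgeR), while Cd8a differed by -0.21 and was not called. Of 12 mature single-positive markers 1 rose and 1 fell, of 10 early double-negative markers 3 rose and 1 fell, of 8 natural killer and gamma-delta markers 2 rose, of 2 erythroid markers 1 fell, and of 3 thymic epithelial markers 1 rose. The sum of the DP markers was 13250 to 13660 CPM in WT and 10960 to 14350 CPM in KO. The part of other cells in the differences of Rag1, Rag2 and Dntt was not tested.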

How the data were processed

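RNA of sorted DP thymocytes was sequenced in 16 libraries. Per the submitters' processing notes, the authors aligned reads with HISAT2 2.0.5 to mm10. The deposited files hold raw read counts per gene. No counter, gene model or strandedness is given in the sources used here. Gene counts per library ranged from 9781368 to 16167074. Summary lines that name no gene were left out. They made up 56.8% to 72.7% of all entries.

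The test was that of edgeR 4.0.16 under R 4.3.3 (filterByExpr, TMM, robust quasi-likelihood, two-sided, Benjamini-Hochberg over all genes, threshold 0.05). Libraries with an age shared 1 fit of 10, the others 1 fit of 6, and the interaction 1 of 12. Lengths came from GENCODE vM21 and promoters from RefSeq, where all 3 genes matched. Correlations used 100000 permutations over 10 libraries and all 36 within groups over 6. Alternatives were DESeq2 1.42.0, limma-voom (limma 3.58.1), other scalings and filters, sex, the replicate block and each library left out. Sex came from the counts of Xist alone.

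Named genes were the 3 genes, their neighbours within 200 kb, Cd4, Cd8a, Ptcra, Il7r and Mettl3, list members called or among the 3 smallest p of a comparison (in young KO given as counts), and for each of the 3 genes the 5 most correlated genes of at least 5 CPM. Some genes under this rule are not reported here. The 3 genes, the lists and the tests were chosen with earlier results of these data known. On simulated data with 100 genes changed 2-fold, recovery was 84% (age), 88% (young KO), 51% (KO, no age) and 37% (interaction), and at 1.5-fold 56%, 39%, 7% and 3%. Without an age and in the interaction, far more genes were called in the data than were changed in the simulation. The adjustment was stricter there, so those shares do not give the power of these 2 tests. Tables and figures were made in Python 3.11.15 (pandas 2.3.3, scipy 1.17.1, matplotlib 3.10.9).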

Additional observations from a re-analysis of the deposited data

Results flagged for a closer look

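Of 64 genes checked in the 4 old WT libraries, 4 had 1 library far from the others, where chance flags about 1 group in 20. Cd4 was 1532 CPM in replicate 4 and 1221 to 1267 CPM in the others, and Tox, a factor of positive selection, was 132.8 CPM in replicate 4 and 84.9 to 91.8 CPM in the others. Il7r, a receptor of mature T cells, was 59.2 CPM in replicate 3 and 8.21 to 12.6 CPM in the others, and Ptcra, the pre-T cell receptor chain, was 23.4 CPM in replicate 3 and 29.9 to 30.9 CPM in the others.

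The KO difference without an age was unequal to that in young mice for Rag1, Rag2 and Dntt by a test of the difference itself, a call that Dntt lost in 4 of 21 alternatives. The interaction was -2.20 for Rag1, -1.13 for Rag2 and -0.59 for Dntt on the log2 scale. Depth and the aligned share also differ between the sets. So does the share of entries outside genes, at 47.5% to 51.2% with an age and 7.23% to 15.0% without. Mettl3 itself differed by -0.002 in young KO and by -0.58 in KO without an age, and 0 of 14228 genes were called in young KO. These differences between the sets cannot be told apart from the unequal KO difference.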

How the results depend on the processing

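In KO without an age, Rag1 and Rag2 kept their direction and call in all 16 alternatives each, between -2.62 and -1.81 and between -1.51 and -1.03. They did so in all 21 alternatives of the interaction too. Without an age, the alternative with sex as a covariate rests on KO replicate 3 alone, the only KO library that read as male. Dntt kept its direction in all, and its call in 14 of 16 without an age and 17 of 21 in the interaction. Without an age it was lost with sex as a covariate (-0.27), and with single libraries left out it ranged from -1.004 to -0.55. In the interaction it was lost with the replicate block (-0.63, adjusted p = 0.068) and with sex (-0.47), and with single libraries left out it ranged from -1.02 to -0.62. In age and young KO none of the 3 genes was called in any alternative. In young KO, with libraries left out, Rag1 ranged from -0.132 to 0.0619 and Rag2 from -0.025 to 0.108.

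The count of genes called for age was 36 and depended on the processing: 85 with no filter, 129 with DESeq2, 61 with the replicate block, 11 with only the 2 groups, and 8 to 59 with single libraries left out (13, 10 and 8 on leaving out young WT replicate 1, 2 or 3, and 59 on leaving out replicate 4 of old WT). The young KO count was 1 with no filter. The log2 ratio of Rag1 to Dntt ranged from -0.315 to 0.0488 for age and from -0.224 to 0.0004 for young KO with libraries left out, and that of Rag2 to Dntt from -0.083 to 0.0504 for young KO. The r of Rag1 and Dntt was -0.0396 over deviations from group means, while those of Rag1 and Rag2 (0.636) and of Rag2 and Dntt (-0.534) kept their sign. Per kb of the longest transcript, Dntt was 1009 CPM in young WT, 1063 in the young KO libraries and 953.8 in the WT ones lacking an age, where library size alone gave 857.6. In age, Cd4 was -0.051 with the replicate block, and with libraries left out Cd4 ranged from -0.0637 to 0.0664, Cd8a from -0.0144 to 0.0646 and Mettl3 from -0.0729 to 0.0001. With the length offset without an age, Dclre1c was 0.071, Prkdc 0.292 and Trp53bp1 0.357. The cause of these changes was not tested.

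Replicate numbers did not pair the libraries: same-numbered libraries correlated from -0.488 to 0.281 with an age and from -0.321 to -0.112 without, and 1 of 18 and 0 of 6 correlated best with their own number. The block gave 7642 calls without an age against 8864. In simulated data 1.5-fold changes were mostly missed without an age (7% recovered) and in the interaction (3%). Far fewer genes were changed there than were called in these 2 comparisons, which makes the adjustment stricter. These shares therefore do not give the power of the real tests.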
